A study of Mus musculus with 14 samples.

Results

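Prostaglandin and leukotriene metabolism was followed through 10 genes chosen by name: Ptgs1, Ptgs2, Ptges and Hpgd, which make and degrade prostaglandin E2, Ptger2 and Ptger4, which sense it, and Alox5, Alox5ap, Lta4h and Ltc4s, which make leukotrienes. All 10 were found, among 24980 genes of a table of dendritic cells and among 17118 genes of a table of monocytes and macrophages. RNA was sequenced from populations sorted by flow cytometry out of mouse bone marrow, in 14 libraries. Dendritic cells came from mice given vehicle alone (4 libraries) or PAM3CSK4, a synthetic lipopeptide that activates Toll-like receptors 1 and 2 and was given once (4 libraries). Monocytes and macrophages came from mice labelled as baseline (3 libraries each). The protocol names Cx3cr1 gfp/+ mice, in which GFP takes the place of one allele of the chemokine receptor gene Cx3cr1, for every population, whereas the series text calls the treated mice wildtype. Dendritic cells were gated as high for GFP, MHC class II and CD11c and negative for Gr-1 and B220. The macrophage gate asked for MHC class II and CD169 in the absence of GFP, Gr-1 and B220, and the monocyte gate for GFP and CD115 in the absence of B220, with Gr-1 low and Gr-1 high cells together. The sources used here state no dose, interval to collection, age, sex or number of mice. Nothing in the labels ties a library to its own mouse, so the p-values speak only of the spread among libraries, part of which may be technical.

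Both mediator families are made from arachidonate that phospholipases cut from membranes. The cyclooxygenases COX-1 (Ptgs1) and COX-2 (Ptgs2) turn it into prostaglandin H2, which the microsomal synthase encoded by Ptges turns into prostaglandin E2, and the dehydrogenase encoded by Hpgd begins the breakdown of that product. The 5-lipoxygenase (Alox5), helped by its activating protein FLAP (Alox5ap), makes leukotriene A4, which Lta4h converts to leukotriene B4 and Ltc4s to leukotriene C4. In dendritic cells, prostaglandin E2 acting through its cAMP-raising receptors EP2 and EP4 is known to influence maturation, cytokine output and migration.

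Values are CPM (reads or fragments of a gene scaled to a common library total), and 1 CPM stood for about 28.2 to 75.1 reads or fragments in a library. PAM3CSK4 replicate 4 stood apart. Its correlation with the other PAM3CSK4 libraries was 0.879 to 0.894, where those correlated at 0.938 to 0.961 with each other. The summed level of 13 dendritic cell markers was 947 CPM in it and 5079 to 6403 CPM in the other PAM3CSK4 libraries, and that of 14 neutrophil markers was 11844 CPM against 658 to 1633 CPM. Vehicle libraries held 11035 to 14155 CPM of the dendritic cell list and 598 to 1055 CPM of the neutrophil list. Members are therefore given with and without that library. All 12 macrophage markers reached 1 CPM in every macrophage library, and 10 of 12 did in every monocyte library. Their sum was 308 to 477 CPM in macrophages and 139 to 479 CPM in monocytes. Of the 12, 4 were higher and 1 lower in macrophages (adjusted p under 0.05, limma). Siglec1, the gene of CD169, lay at 18.9, 18.6 and 25.2 CPM in macrophages and at 34.7, 2.20 and 14.1 CPM in monocytes. The plot of marker sums shows the lists by library.

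**Figure D1:**
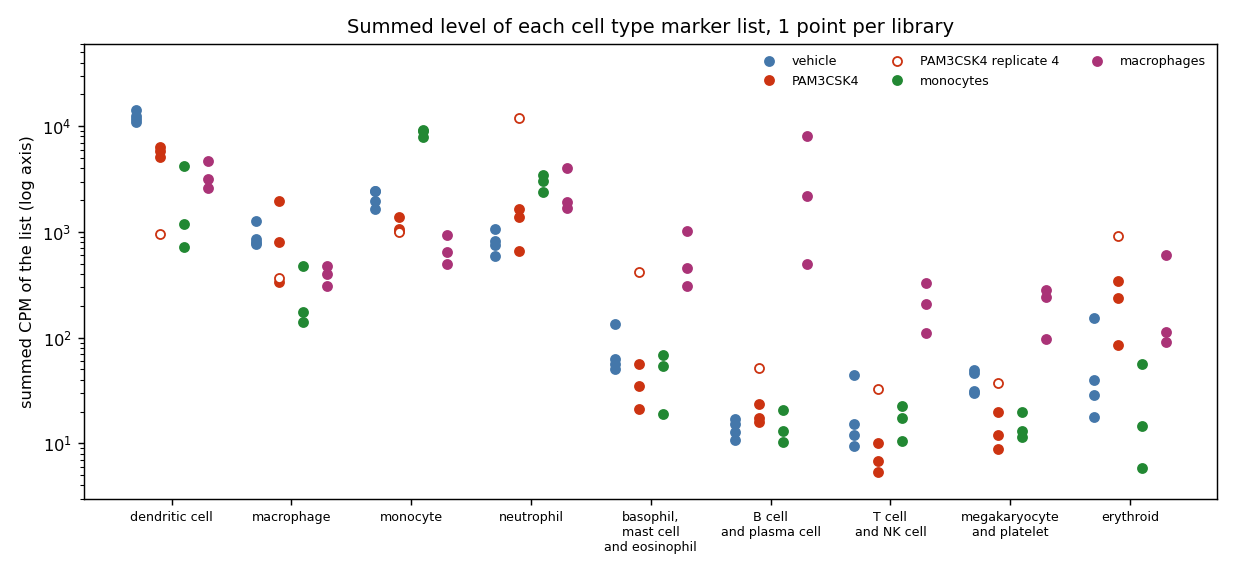
Summed CPM (log axis) of 9 lists of cell type markers, 1 point per library, for dendritic cells with vehicle or PAM3CSK4, monocytes and macrophages. The open point is PAM3CSK4 replicate 4, at 11844 CPM of neutrophil markers, and macrophage libraries lie above the monocyte libraries in the lists of basophils, mast cells and eosinophils, of B cells, of T and NK cells, of megakaryocytes and of erythroid cells.

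After PAM3CSK4, dendritic cells held far less Hpgd RNA, and no other member passed the test. Of the 10 members, 8 reached 1 CPM in at least 4 libraries and were tested, and 1 of these had an adjusted p below 0.05 (limma, Benjamini-Hochberg over all genes), beside 5.12% of all genes tested. That member was lower with PAM3CSK4, as were 2.29% of all genes, 0 members were higher, as were 2.82% of all genes, and it was the only member whose groups did not overlap, which held for 14.8% of all genes. The median log2 change of the 8 tested members was 0.45, and that of all genes 0.20. Without PAM3CSK4 replicate 4, 3 of 8 tested members passed, beside 785 of 11499 genes (463 higher and 322 lower). Of these members Hpgd fell, and Ptgs2 and Ptger4 rose. In sorted bulk samples, fewer cells of a type and less RNA per cell cannot be told apart.

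**Figure D2:**
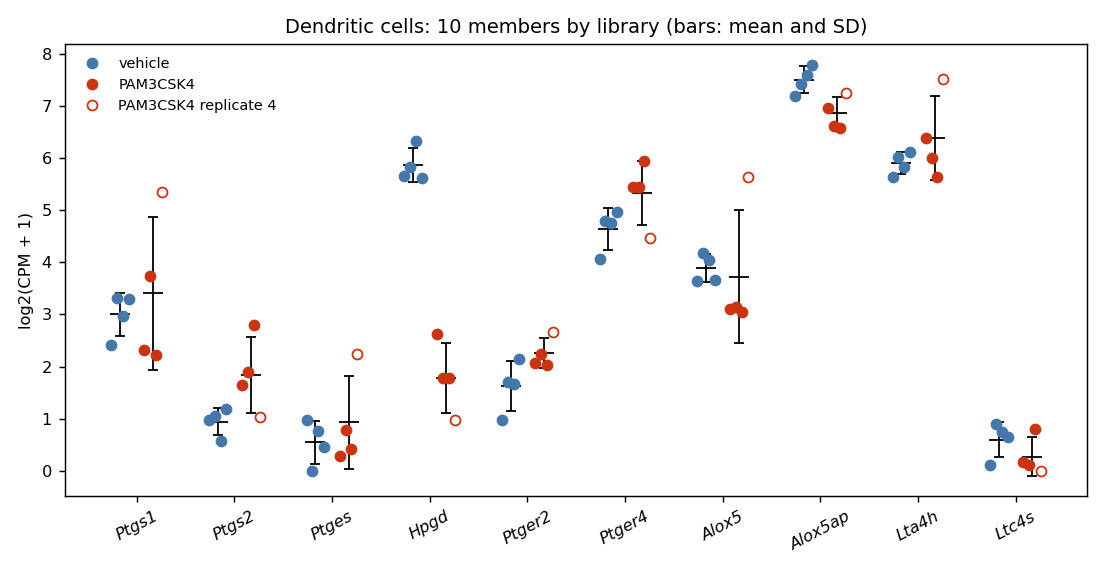
Level of each member in dendritic cells as log2(CPM + 1), 1 point per library, with the mean and SD of each group (4 libraries each). Only Hpgd separates the groups, and the open point, PAM3CSK4 replicate 4, lies above the other PAM3CSK4 libraries in Ptgs1, Ptges, Ptger2, Alox5, Alox5ap and Lta4h and below them in Ptgs2, Hpgd, Ptger4 and Ltc4s.

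Hpgd (chromosome 8, 56294552 to 56321047 in mm10) encodes 15-hydroxyprostaglandin dehydrogenase. Its level was 49.6, 56.0, 80.3 and 48.6 CPM in vehicle replicates 1 to 4 and 5.14, 2.41, 2.41 and 0.965 CPM in PAM3CSK4 replicates 1 to 4. The lowest vehicle library thus lay well above the highest PAM3CSK4 library. Hpgd fell from 58.6 ± 14.8 to 2.73 ± 1.75 CPM (SD, n = 4 each), 21.5-fold in the means, with a log2 change of −4.08 ± 0.33 (SE) on the log2(CPM + 1) scale and adjusted p = 5.2e-05. Without PAM3CSK4 replicate 4 the log2 change was −3.82 (adjusted p = 4.2e-06), and over all 15 alternative settings it ran from −4.56 to −3.82. The exact permutation test gave p = 0.0286, the smallest that 4 against 4 libraries allow. The genes whose log2 levels correlated best with Hpgd over the 8 libraries were Skint3 (Pearson r = 0.996) and the C-type lectins Cd209a (r = 0.994) and Cd209d (r = 0.993). Each r was taken over both groups together, so it includes the difference between vehicle and PAM3CSK4. Cd209a, also in the dendritic cell marker list, was at 404, 443, 394 and 323 CPM with vehicle and at 9.64, 1.70, 1.16 and 0.0001 CPM with PAM3CSK4, the last being the lowest value listed. Of the 13 markers of that list, 4 were lower with PAM3CSK4 and 0 higher. The list summed to 11035 to 14155 CPM with vehicle and to 5079 to 6403 CPM in PAM3CSK4 replicates 1 to 3. Within it, Itgax, the gene of CD11c, on which the cells were gated, was at 277, 181 and 283 CPM in PAM3CSK4 replicates 1 to 3. That was within or close to its vehicle range of 170 to 271 CPM, and Itgax was at 27.5 CPM in replicate 4. Itgax is 1 gene of the 13, and the MHC class II genes of the list, on which the cells were also gated, are not given singly here. The part of these marker changes in the Hpgd result was not tested.

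The promoters of Hpgd, the member that passed in both comparisons, and of Ptgs2, the inducible enzyme at the other end of the pathway, are printed from RefSeq on GRCm38.p6, from 250 bases before to 50 bases after the annotated start, both on the plus strand (chr8:56294302-56294601 and chr1:150099781-150100080). Capitals mark GAGGAA on either strand, the core bound by the myeloid factor PU.1, and TATAAA.
Hpgd: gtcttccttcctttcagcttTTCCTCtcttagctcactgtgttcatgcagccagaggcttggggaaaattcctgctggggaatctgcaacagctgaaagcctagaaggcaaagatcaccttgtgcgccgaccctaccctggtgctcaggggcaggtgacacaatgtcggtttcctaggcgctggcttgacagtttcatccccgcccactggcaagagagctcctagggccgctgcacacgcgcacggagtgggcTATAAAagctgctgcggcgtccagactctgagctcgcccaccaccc
Ptgs2: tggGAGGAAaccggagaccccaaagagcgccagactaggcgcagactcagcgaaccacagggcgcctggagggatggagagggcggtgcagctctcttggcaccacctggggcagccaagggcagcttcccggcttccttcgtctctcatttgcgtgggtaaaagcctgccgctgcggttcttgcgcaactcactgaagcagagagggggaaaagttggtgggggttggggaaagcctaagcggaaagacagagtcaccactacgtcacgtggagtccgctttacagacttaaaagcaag
In Hpgd the core begins at −230 on the reverse strand (printed as TTCCTC) and TATAAA at +5 from the RefSeq start, which is 29 bases before the gene start of GENCODE M21. In Ptgs2 the core begins at −247, and TATAAA was not in the window. GAGGAA was in the windows of 7 of the 9 members matched in the promoter table (all but Alox5ap), and in 28.3% of all 32851 promoters, TATAAA in 1 of the 9 and in 13.6% of all. The sites TGANTCA (AP-1), TGACGTCA (CRE) and GGGRNWYYCC (NF-kB) were searched on both strands. None was in any of the 9 windows, and they were in 7.81%, 1.79% and 4.51% of all promoters. In these letters N is any base, R is A or G, W is A or T and Y is C or T. Only full matches counted, so shorter or variant forms of a site were not sought. A match is a string of letters in a window and not a measured binding site.

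The cyclooxygenase genes did not pass. Ptgs1 (chromosome 2, 36230426 to 36252272), the constitutive enzyme, was at 4.36, 8.94, 6.85 and 8.83 CPM with vehicle and at 3.99, 12.4, 3.67 and 39.7 CPM with PAM3CSK4. PAM3CSK4 replicate 4 alone was above 12.4 CPM, the groups overlapped, and the log2 change was 0.41 ± 0.57 (adjusted p = 0.69) with it and −0.24 (adjusted p = 0.73) without it. Ptgs2 (chromosome 1, 150100031 to 150108235), the enzyme induced in inflammation, was low throughout, at 0.964, 1.06, 0.485 and 1.27 CPM with vehicle and 2.11, 2.73, 5.95 and 1.04 CPM with PAM3CSK4. Replicates 1 to 3 lay above every vehicle library and replicate 4 among them. The log2 change was 0.90 ± 0.35 (adjusted p = 0.14), and without replicate 4, 1.17 (adjusted p = 0.034), the only setting in which Ptgs2 passed. Ptges (chromosome 2, 30889471 to 30903298), the inducible prostaglandin E synthase, stayed under the filter for testing: 0.950, 0.0001, 0.690 and 0.368 CPM with vehicle, and 0.221, 0.709, 0.330 and 3.72 CPM with PAM3CSK4. Its highest value, about 243 reads, was again in replicate 4, and the exact permutation test gave p = 0.60.

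Both prostaglandin E2 receptors had higher means with PAM3CSK4, and neither passed with all libraries. Ptger4 (chromosome 15, 5233399 to 5244188), which encodes EP4, was at 15.7, 26.8, 26.1 and 30.5 CPM with vehicle and at 42.9, 43.0, 60.6 and 21.1 CPM with PAM3CSK4. Replicates 1 to 3 exceeded every vehicle library, and replicate 4 lay within the vehicle range. The log2 change was 0.68 ± 0.32 (adjusted p = 0.20), and 0.97 (adjusted p = 0.042) without replicate 4, the only setting in which Ptger4 passed. Ptger2 (chromosome 14, 44988111 to 45003821), which encodes EP2, was at 0.964, 2.27, 2.17 and 3.43 CPM with vehicle and 3.20, 3.72, 3.10 and 5.38 CPM with PAM3CSK4. Its groups overlapped only through vehicle replicate 4, and it passed in none of the settings tried (log2 change 0.63 ± 0.29, adjusted p = 0.20, and 0.49, adjusted p = 0.33, without PAM3CSK4 replicate 4).

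None of the leukotriene genes passed either. Alox5ap (chromosome 5, 149265004 to 149288154) was at 147, 171, 194 and 223 CPM with vehicle and at 125, 98.1, 95.6 and 153 CPM with PAM3CSK4, where only replicate 4 reached the vehicle range. Its log2 change was −0.65 ± 0.23 (adjusted p = 0.12) with all libraries and −0.78 (adjusted p = 0.060) without replicate 4, and it passed with median centring (−0.86, adjusted p = 0.034). Alox5 (chromosome 6, 116410071 to 116461179) was at 11.6, 17.2, 15.6 and 11.6 CPM with vehicle and at 7.60, 7.79, 7.23 and 48.8 CPM with PAM3CSK4. Replicates 1 to 3 lay below all vehicle libraries and replicate 4 far above them. The log2 change of Alox5 was −0.16 ± 0.50 (adjusted p = 0.87), and −0.79 (adjusted p = 0.071) without replicate 4. Lta4h (chromosome 10, 93453396 to 93484897) was at 49.3, 63.9, 56.4 and 68.6 CPM with vehicle and at 83.1, 63.6, 48.9 and 183 CPM with PAM3CSK4, with overlapping groups and a log2 change of 0.49 ± 0.34 (adjusted p = 0.40) that was 0.11 (adjusted p = 0.83) without replicate 4. Ltc4s (chromosome 11, 50236461 to 50238533) was under the filter, at 0.0806, 0.860, 0.664 and 0.555 CPM with vehicle and 0.126, 0.0710, 0.750 and 0.0001 CPM with PAM3CSK4. The groups of Ltc4s overlapped, and the exact permutation test gave p = 0.29.

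In the same library in which Ptgs1, Ptges, Ptger2, Alox5 and Lta4h were highest, PAM3CSK4 replicate 4, the neutrophil granule genes Ltf, Ngp and S100a9 were at 1962, 2772 and 1700 CPM, against at most 264, 335 and 263 CPM in the other PAM3CSK4 libraries, and Ly6g, which defines the lineage, was at 2.48 CPM against at most 0.264 CPM. The 12 markers of basophils, mast cells and eosinophils summed to 415 CPM in it and to 21.1 to 56.2 CPM in the others (51.0 to 134 CPM with vehicle), and the 9 erythroid markers to 907 CPM against 85.6 to 343 CPM. Of the neutrophil list, 2 of 13 tested markers passed over all libraries (Mmp8 and Csf3r, both higher), and of the dendritic cell list 4 of 13, all lower. Of the monocyte list 3 of 12 were lower and 0 higher, and its sum was 1635 to 2458 CPM with vehicle and 1008 to 1396 CPM with PAM3CSK4. Every PAM3CSK4 library thus lay below every vehicle library in the monocyte sum. Sorted monocytes, from the table made separately, held 7893 to 9158 CPM of that list and 27.9 ± 12.6 CPM of Hpgd. Of the macrophage list 2 of 12 were higher and 3 lower, of the megakaryocyte and platelet list 2 of 4 were lower, and of the erythroid list 3 of 7 were higher. The part of these other cell types in the member levels, that of Hpgd included, was not tested.

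**Figure D3:**
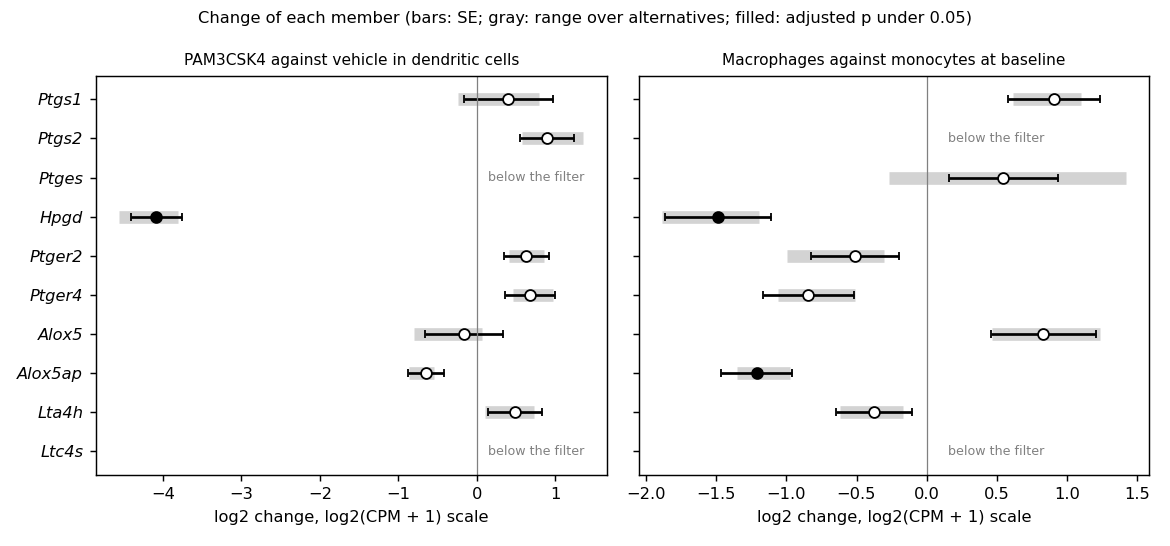
Log2 change of each tested member on the log2(CPM + 1) scale, with PAM3CSK4 (left) and in macrophages against monocytes (right). Points are estimates with SE, filled where the adjusted p was under 0.05, and gray bands give the range over the alternative settings. The band crosses 0 for Ptgs1 and Alox5 on the left and for Ptges on the right, and the band of Hpgd lies below 0 in both panels.

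Levels of different genes were compared per kilobase of exon, with exon lengths from GENCODE M21. Its gene bounds reach well beyond the listed ones for Ptger4 and Ptges, so their levels per kb may be too low. In vehicle dendritic cells Alox5ap led with 129 ± 22.9 CPM per kb, followed by Hpgd with 34.8 ± 8.79 and Lta4h with 9.76 ± 1.39. Below them came Ptger4 (3.73 ± 0.956), Alox5 (3.41 ± 0.690) and Ptgs1 (1.86 ± 0.554), of which Ptger4 and Alox5 did not differ beyond their SD. Ltc4s (0.532 ± 0.327), Ptger2 (0.425 ± 0.194), Ptgs2 (0.206 ± 0.0724) and Ptges (0.128 ± 0.104) closed the order, and neither Ltc4s and Ptger2 nor Ptgs2 and Ptges differed beyond their spread. With PAM3CSK4, Alox5ap (83.0 ± 18.9 CPM per kb), Lta4h (15.5 ± 9.95) and Ptger4 (6.31 ± 2.43) led, and Hpgd stood in position 6 of 10 with 1.62 ± 1.04 (n = 4). That order rested on PAM3CSK4 replicate 4. Over the other 3 libraries Hpgd stood in position 4 with 1.97 ± 0.938 CPM per kb, and Alox5 (1.84 ± 0.0696) and Ptgs1 (1.72 ± 1.27) came next, within the SD of Hpgd, with Alox5ap (74.8 ± 11.4), Lta4h (10.7 ± 2.81) and Ptger4 (7.35 ± 1.54) above them.

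In the wider pathway 7 of 63 tested genes passed with PAM3CSK4, and the numbers called higher and lower depended on the scaling. Of 96 symbols in 8 lists around the pathway, 93 were in the table, 63 were tested, 2 rose and 5 fell, or 11.1% of those tested, where 5.12% of all genes passed (2.82% higher and 2.29% lower). The split was 0 higher and 9 lower with median centring, 0 and 8 with quantile normalization and 1 and 8 after rescaling to a common total. The median of the pathway's log2 changes was 0.09, against 0.20 for all genes. Among 11 tested genes of arachidonate release and re-uptake into membranes, 2 rose and 0 fell, but with median centring or quantile normalization 0 were higher and 1, Daglb, was lower, and with no filter on low values 0 of 16 passed. Pla2g4a, the cytosolic phospholipase that frees arachidonate, was at 7.20, 13.2, 7.06 and 7.21 CPM with vehicle and 17.9, 64.3, 23.9 and 18.4 CPM with PAM3CSK4. Every PAM3CSK4 library was above every vehicle library, and the log2 change was 1.57 ± 0.38 (adjusted p = 0.035). The call of Pla2g4a held in 7 of 15 settings, and over all 15 its log2 change ran from 1.16 to 1.77. It was lost without any 1 vehicle library or without PAM3CSK4 replicate 3 (adjusted p = 0.057 to 0.11), with no filter (0.12), with median centring (0.057) and with quantile normalization (0.052). Lpcat3, which returns arachidonate to phospholipids, rose by 0.91 ± 0.24 (adjusted p = 0.0499) but kept its call in only 2 of 15 settings, and it overlaps Emg1 on the other strand.

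On the side of the products, Tbxas1, thromboxane synthase, fell from 43.5 ± 4.64 to 20.9 ± 9.65 CPM (adjusted p = 0.039, log2 change −1.10 ± 0.27) and was the only 1 of 8 tested synthases and exporters to pass. Its call was lost in 7 of 8 fits without a single library (adjusted p up to 0.11), all but that without PAM3CSK4 replicate 2. It was also lost with no filter on low values. Of 3 tested prostanoid receptors 0 passed. Ptgir, the prostacyclin receptor, was at 19.3, 20.5, 16.7 and 22.9 CPM with vehicle and at 3.46, 6.45, 4.19 and 18.9 CPM with PAM3CSK4. Its log2 change of −1.44 ± 0.40 had adjusted p = 0.057, and without replicate 4, whose level was within the vehicle range, Ptgir fell by 1.90 (adjusted p = 0.00056), and it passed in 4 of the other settings too. Ptgdr2, a prostaglandin D2 receptor, had a log2 change of −1.30 ± 0.38 (adjusted p = 0.065) and passed without PAM3CSK4 replicate 1 (adjusted p = 0.011). Of 5 tested genes of uptake and breakdown other than Hpgd, 0 passed. The transporter Slco3a1 averaged 20.4 ± 4.42 CPM after PAM3CSK4 against 11.2 ± 2.56 CPM in vehicle libraries (adjusted p = 0.073, and 0.034 without PAM3CSK4 replicate 1). The reductase Ptgr1, which acts after Hpgd, was at 5.30 ± 2.03 and 12.3 ± 6.55 CPM (adjusted p = 0.10).

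In the branch below leukotriene C4, a breakdown enzyme and a receptor fell. Dpep2, a dipeptidase that cuts leukotriene D4, was at 18.5, 16.5, 15.1 and 16.3 CPM with vehicle and at 2.53, 3.31, 1.72 and 2.30 CPM with PAM3CSK4, and no values overlapped. Dpep2 fell by 2.36 ± 0.23 on the log2 scale (adjusted p = 0.00026), as 1 of 9 tested genes of conjugation, export and breakdown. Cysltr1, a receptor for these products, fell from 13.1 ± 1.76 to 4.01 ± 0.713 CPM (log2 change −1.50 ± 0.22, adjusted p = 0.0042), as 1 of 2 tested leukotriene receptors. It overlaps Gm5127 on the other strand. Ephx1, microsomal epoxide hydrolase, fell from 4.47 ± 0.878 to 0.634 ± 0.271 CPM (log2 change −1.74 ± 0.24, adjusted p = 0.0027), as 1 of 2 in the list of other lipoxygenases and epoxide enzymes. These 3 calls held in all 15 alternatives, with adjusted p up to 0.023. In the cAMP list below EP2 and EP4, 1 of 23 tested genes passed: the cyclase Adcy4 fell from 2.06 ± 0.494 to 0.424 ± 0.320 CPM (adjusted p = 0.027), and its call was lost without any 1 vehicle library or without PAM3CSK4 replicate 2 or 3 (adjusted p = 0.059 to 0.084).

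**Figure D4:**
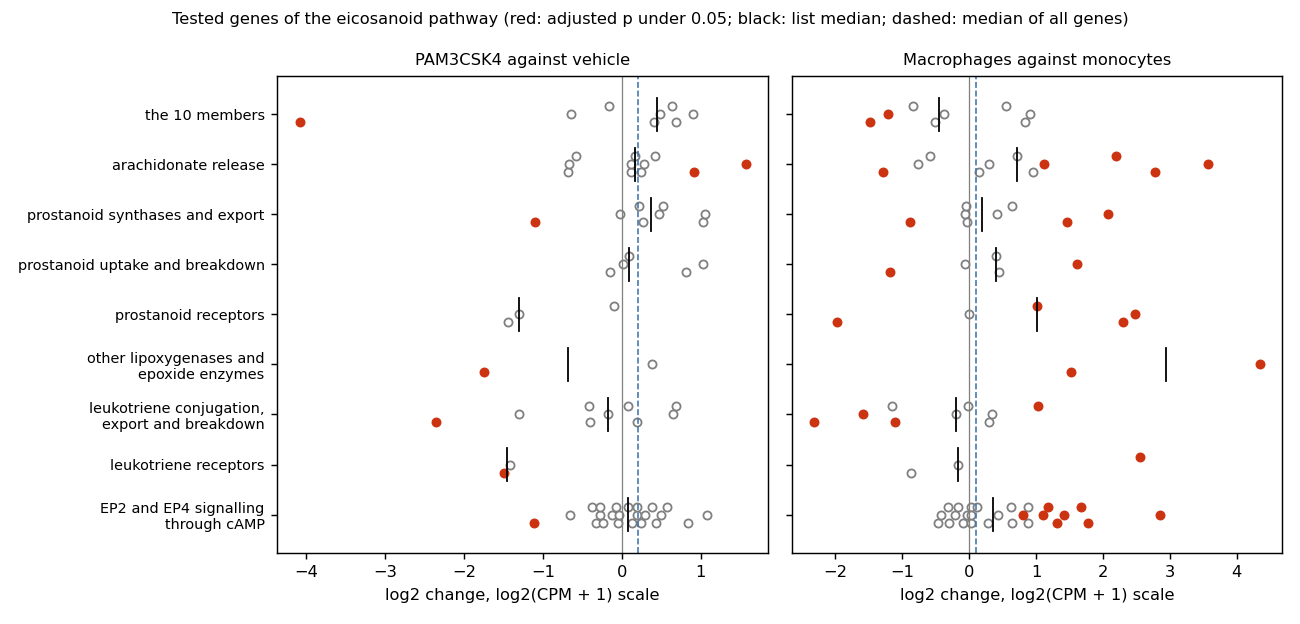
Log2 change of every tested gene of the members and of the 8 pathway lists, on the log2(CPM + 1) scale, with PAM3CSK4 (left) and in macrophages against monocytes (right). Red points passed (adjusted p under 0.05), black bars are list medians and the dashed line is the median of all genes, 0.20 on the left and 0.10 on the right. Calls lie on both sides of 0 in both panels.

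At baseline, macrophage libraries held less Alox5ap and less Hpgd RNA than monocyte libraries. Of the 10 members 8 were tested and 2 passed, both lower in macrophages, where 20.2% of all genes passed and 7.42% were lower. Hpgd, Alox5ap, Ptgs1 and Ptger4, 4 of the 8, had groups that did not overlap, as did 34.2% of all genes, and 0 members were higher, as were 12.8% of all genes. The median log2 change of the 8 was −0.44, and of all genes 0.10. With 3 against 3 libraries an exact permutation test cannot go below p = 0.10, so calls here rest on limma, which draws on the spread of all genes. Neutrophil markers summed to 2377 to 3435 CPM in monocytes and 1677 to 4030 CPM in macrophages. Of 13 tested, 8 were higher in macrophages and 4 lower. Ly6g, which defines the lineage, was below 0.1 CPM in every monocyte library but not in every macrophage library. Of 12 monocyte markers 10 were lower and 0 higher, with sums of 7893 to 9158 CPM in monocytes and 494 to 927 CPM in macrophages. B cell and plasma cell markers summed to 10.3 to 20.7 CPM in monocytes and 493 to 8034 CPM in macrophages, where the macrophage list summed to 308 to 477 CPM. The part of neutrophils, B cells and other cell types in the member levels was not tested.

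**Figure D5:**
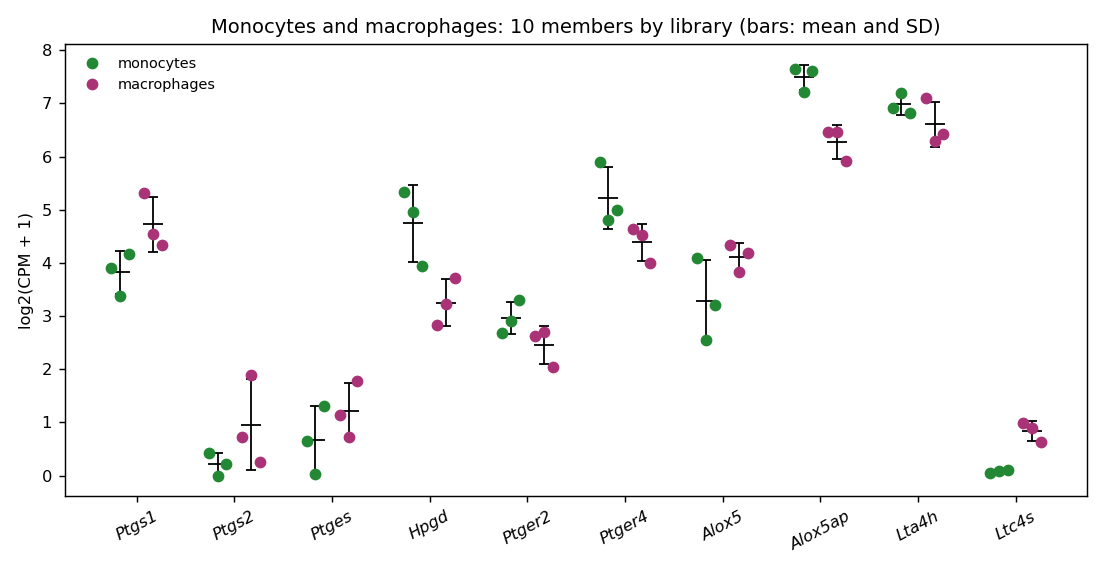
Level of each member in monocytes and macrophages as log2(CPM + 1), 1 point per library, with the mean and SD of each group (3 libraries each). Alox5ap and Hpgd are lower in every macrophage library than in any monocyte library, and Ltc4s is above 0.5 CPM only in macrophages.

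Alox5ap, the activator of 5-lipoxygenase, was at 199, 147 and 195 CPM in monocyte replicates 1 to 3 and at 87.0, 86.8 and 59.2 CPM in macrophage replicates 1 to 3. All monocyte libraries were above all macrophage libraries. Alox5ap was lower in macrophages by 1.21 ± 0.25 on the log2 scale (180 ± 28.9 against 77.7 ± 16.0 CPM, SD, n = 3 each, adjusted p = 0.0050), and passed in all 13 alternatives with adjusted p up to 0.029. Its closest followers over the 6 libraries were Synj1 (Pearson r = 0.996), Mmp28 (r = 0.995) and Alpk1 (r = 0.994). Alox5 itself was at 16.0, 4.87 and 8.27 CPM in monocytes and 19.2, 13.1 and 17.3 CPM in macrophages, overlapping through monocyte replicate 1. Its log2 change was 0.83 ± 0.37 (adjusted p = 0.15), and without monocyte replicate 1 it was 1.23 (adjusted p = 0.020). Lta4h was at 119, 145 and 113 CPM in monocytes and at 135, 76.9 and 85.4 CPM in macrophages, with overlapping groups and a log2 change of −0.38 ± 0.27 (adjusted p = 0.39).

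Ltc4s was close to absent from monocytes, at 0.0355, 0.0602 and 0.0751 CPM (about 2, 3 and 4 reads), and lay at 0.987, 0.866 and 0.545 CPM in macrophages (about 33, 59 and 41 reads). It stayed below the filter for testing, since only values of 1 CPM counted. The groups did not overlap, and the ratio of summed reads, relative to depth, was 13.4 with a 95% interval of 6.83 to 29.9 that covers counting error only. With no filter on low values, limma gave a log2 change of 0.76 ± 0.13 and adjusted p = 0.0070, and the exact permutation test gave p = 0.10, its smallest. Beside it, the markers of basophils, mast cells and eosinophils, cells known for leukotriene C4 synthesis, summed to 54.0, 18.8 and 68.7 CPM in monocytes and to 454, 311 and 1016 CPM in macrophages, with 8 of 10 tested markers higher in macrophages. Among them Prg2 was at 174, 117 and 643 CPM, Epx at 40.0, 35.1 and 185 CPM and Gata2 at 113, 69.6 and 29.2 CPM in macrophage replicates 1 to 3. Their part in the level of Ltc4s was not tested.

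Hpgd was at 39.2, 30.0 and 14.3 CPM in monocytes and at 6.07, 8.41 and 12.0 CPM in macrophages. The lowest monocyte library lay just above the highest macrophage library. Hpgd was lower in macrophages by 1.49 ± 0.38 on the log2 scale (27.9 ± 12.6 against 8.84 ± 3.01 CPM, adjusted p = 0.014). The call was lost without macrophage replicate 1 (−1.27, adjusted p = 0.094) or macrophage replicate 2 (−1.48, adjusted p = 0.066). Within the monocytes, the order of Hpgd was that of the dendritic cell marker list, which summed to 4169, 1182 and 723 CPM in replicates 1 to 3, and of Cd209a at 106, 40.0 and 13.7 CPM. In macrophage replicates 1 to 3 the same list summed to 3172, 4689 and 2590 CPM, in another order than Hpgd. The part of dendritic cells in the monocyte and macrophage levels was not tested. The genes closest to Hpgd over the 6 libraries were Glis3 (Pearson r = 0.973), Cnn3 (r = 0.968) and Bmp2k (r = 0.965).

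The prostaglandin-forming members were higher in macrophages in their means without passing. Ptgs1 was at 14.0, 9.43 and 17.0 CPM in monocytes and 38.8, 22.2 and 19.2 CPM in macrophages. Every macrophage library exceeded every monocyte library, and the log2 change was 0.91 ± 0.33 (adjusted p = 0.073, and 0.032 after rescaling to a common total). Ptgs2 was at 0.336, 0.0001 and 0.169 CPM against 0.658, 2.73 and 0.186 CPM, below the filter, with exact permutation p = 0.20. Ptges was at 0.566, 0.0201 and 1.48 CPM against 1.20, 0.646 and 2.42 CPM, overlapping, with a log2 change of 0.55 ± 0.39 (adjusted p = 0.39) that turned to −0.27 under quantile normalization. Neither receptor member passed. Ptger4 was at 58.2, 26.8 and 30.9 CPM in monocytes and 23.9, 22.0 and 14.9 CPM in macrophages, with a log2 change of −0.84 ± 0.32 (adjusted p = 0.092). Ptger4 passed without monocyte replicate 2 (−1.06, adjusted p = 0.036), and without monocyte replicate 1, its highest library, the change was −0.51 (adjusted p = 0.35). Ptger2 was at 5.45, 6.53 and 8.81 CPM against 5.15, 5.52 and 3.11 CPM, which overlapped (log2 change −0.51 ± 0.31, adjusted p = 0.31).

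Per kilobase of exon, Alox5ap was again first, with 127 ± 20.3 CPM per kb in monocytes and 54.7 ± 11.3 in macrophages, and Lta4h second, with 20.6 ± 2.84 and 16.3 ± 5.18. Hpgd was in position 3 in monocytes (16.5 ± 7.46, within its SD of Lta4h) and in position 4 in macrophages (5.25 ± 1.79), behind Ptgs1 (6.88 ± 2.72), from which it did not differ beyond the spread. Ptgs2 was last in both, at 0.0368 ± 0.0367 and 0.260 ± 0.295. Hpgd thus had its highest mean per kb in vehicle dendritic cells, then monocytes, macrophages and PAM3CSK4 dendritic cells, and the monocyte and macrophage values are set beside those of dendritic cells without a test, since the tables were made separately. Ptgs2 stayed below 1 CPM per kb on average in each of the 4 groups.

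In the wider pathway, 29 of 69 tested genes (42.0%) passed between the baseline populations, 22 higher and 7 lower in macrophages. Of all genes 20.2% passed, 12.8% higher and 7.42% lower. The pathway's split was 14 higher and 8 lower with quantile normalization. The median of the pathway's log2 changes was 0.30, against 0.10 for all genes. Alox15, which makes other arachidonate products, was at 0.407, 1.38 and 4.89 CPM in monocytes and 22.6, 63.1 and 110 CPM in macrophages. No library overlapped, and its log2 change was 4.35 ± 0.58 (adjusted p = 0.00026). Cysltr2, a cysteinyl leukotriene receptor, was at 0.106, 0.0001 and 0.0751 CPM in monocytes and 6.67, 5.99 and 3.44 CPM in macrophages (adjusted p = 0.00014, log2 change 2.55 ± 0.31), as 1 of 3 tested leukotriene receptors. Alox15 and Cysltr2 passed in all 13 alternatives. Ephx1, the other tested gene of the list that holds Alox15, was higher by 1.53 ± 0.43 (adjusted p = 0.024), a call lost without monocyte replicate 2 or macrophage replicate 2 or 3 (adjusted p = 0.062, 0.054 and 0.055). That call was also lost with no filter, median centring or quantile normalization (adjusted p up to 0.25), and held in 7 of 13 settings. Eosinophil genes were high in the same libraries, as given for Ltc4s above, and their part was not tested. Mgst1, a microsomal glutathione transferase, averaged 10.5 ± 5.01 CPM in macrophages against 53.3 ± 13.5 CPM in monocytes (log2 change −2.32 ± 0.36, adjusted p = 0.00069). Of the 9 tested genes of its list, 3 were lower (Mgst1, Cyp4f18, which degrades leukotriene B4, and Cotl1, which binds 5-lipoxygenase) and 1 was higher (Ggt5, which cuts leukotriene C4). The calls of Cyp4f18, Cotl1 and Ggt5 were lost without macrophage replicate 1 (adjusted p = 0.11, 0.080 and 0.16) and without macrophage replicate 2 (adjusted p = 0.080, 0.15 and 0.081). That of Cotl1 was also lost without monocyte replicate 1 or 3 or macrophage replicate 3 (adjusted p = 0.084, 0.12 and 0.069), and that of Ggt5 without monocyte replicate 2 or 3 (adjusted p = 0.068 and 0.15). Cotl1 also did not pass with no filter, a common total or quantile normalization, and held its call in 5 of 13 settings. Ggt5 did not pass with a pseudocount of 0.1, no filter or quantile normalization (adjusted p up to 0.30), and held its call in 6 of 13.

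Prostanoid receptors divided between the populations, with 3 of 5 tested higher and 1 lower in macrophages. Ptger3, the EP3 receptor, was at 0.0355, 0.561 and 0.169 CPM in monocytes and 8.41, 5.72 and 2.61 CPM in macrophages (adjusted p = 0.00099, log2 change 2.31 ± 0.37), and Tbxa2r, the thromboxane receptor, had a log2 change of 2.47 ± 0.35 (adjusted p = 0.00040). Ptgdr2 was higher by 1.01 ± 0.30 (adjusted p = 0.030), a call lost without monocyte replicate 2 or 3 or macrophage replicate 1 or 2 (adjusted p = 0.062 to 0.096) and held in 6 of 13 settings. Ptgir was lower, at 30.2, 14.1 and 23.3 CPM in monocytes and 5.80, 3.96 and 4.58 CPM in macrophages (adjusted p = 0.0011, log2 change −1.98 ± 0.32). Megakaryocytes and platelets carry the thromboxane receptor, and their 8 markers summed to 11.5 to 20.0 CPM in monocytes and 96.5 to 285 CPM in macrophages, with 6 of 7 tested markers higher. Their part in the level of Tbxa2r was not tested.

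Among synthases and exporters, 2 of 8 tested were higher and 1 lower. Hpgds, the hematopoietic prostaglandin D synthase, was at 2.39, 0.781 and 1.07 CPM in monocytes and 7.66, 7.61 and 11.6 CPM in macrophages, without overlap (log2 change 2.08 ± 0.33, adjusted p = 0.00094), and the reductase Cbr1 was higher by 1.46 ± 0.30 (adjusted p = 0.0043). Abcc4, an exporter of prostaglandins, averaged 44.6 ± 4.02 CPM in macrophages against 83.4 ± 5.66 CPM in monocytes (adjusted p = 0.014, and 0.082 or 0.054 without monocyte or macrophage replicate 3). In arachidonate release, 4 of 11 were higher and 1 lower. Faah (log2 change 3.57 ± 0.35) and Mgll (2.19 ± 0.47), which free arachidonate from endocannabinoids, and the phospholipases Pla2g16 (2.78 ± 0.33) and Pla2g6 (1.12 ± 0.31) were higher, and Daglb, an endocannabinoid-forming lipase, was lower (−1.28 ± 0.32). The calls of Faah and Pla2g16 held in all 13 alternatives, that of Mgll was lost with quantile normalization (adjusted p = 0.068), that of Daglb without macrophage replicate 2 (adjusted p = 0.071) and that of Pla2g6 without macrophage replicate 1 or 3 or monocyte replicate 3 (adjusted p = 0.10, 0.062 and 0.072).

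In uptake and breakdown other than Hpgd, 1 of 5 was higher and 1 lower. Slco3a1 averaged 58.7 ± 26.3 CPM in macrophages against 17.9 ± 7.14 CPM in monocytes (adjusted p = 0.0100, and 0.078 or 0.066 without macrophage replicate 1 or 2). Ptgr1, the reductase after Hpgd, was at 14.8, 23.8 and 20.9 CPM in monocytes and 8.86, 6.91 and 8.29 CPM in macrophages (log2 change −1.19 ± 0.28), with adjusted p = 0.010, and 0.052 without monocyte replicate 3. Of 26 tested genes of cAMP signalling, 8 were higher in macrophages and 0 lower. The largest difference among them was that of the cyclase Adcy6, at 5.82, 3.60 and 2.85 CPM in monocytes and 45.0, 35.0 and 26.5 CPM in macrophages (adjusted p = 8.3e-05, log2 change 2.85 ± 0.32), and the phosphodiesterase Pde4b was higher by 1.78 ± 0.30 (adjusted p = 0.0013). Adcy6 and Pde4b passed in all 13 alternatives. Crem, a cAMP-responsive transcription factor gene, was higher by 1.31 ± 0.32, a call lost with quantile normalization (adjusted p = 0.21). The other 5 were the cyclase gene Adcy9, Rapgef3 and Rapgef4, which encode exchange factors activated by cAMP, and the phosphodiesterase genes Pde4d and Pde7a, with log2 changes of 0.80 to 1.67, and each of these lost its call without macrophage replicate 1 (adjusted p = 0.061 to 0.16). Without other single libraries, Adcy9 lost its call 3 times (monocyte replicates 2 and 3 and macrophage replicate 2, adjusted p up to 0.11), Rapgef4 2 times (monocyte replicate 2 and macrophage replicate 2, adjusted p up to 0.10) and Pde7a 4 times (all but monocyte replicate 2, adjusted p up to 0.26). Rapgef4 and Pde7a also did not pass with median centring (adjusted p = 0.057 and 0.053), nor Adcy9, Rapgef3 and Rapgef4 with quantile normalization. Calls held in 7 of 13 settings for Adcy9 and Rapgef4 and in 3 of 13 for Pde7a. B cell, T and NK cell and erythroid markers were also higher in the macrophage libraries (8 of 8, 7 of 8 and 9 of 9 tested), with B cell markers summing to 10.3 to 20.7 CPM in monocytes and 493 to 8034 CPM in macrophages. Their part in these pathway results was not tested.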

How the data were processed

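RNA of sorted bone marrow cells was purified on columns and sequenced after ribosomal RNA had been removed, per the labels' protocols. The authors scaled each gene's reads to a library total and deposited the values in 2 tables named FPKM, but they are CPM as read from the values. Less 0.0001, which appears to have been added throughout, 66.6% to 69.2% (dendritic cells) and 88.1% to 90.9% (monocytes, macrophages) of values up to 50 steps lay within 0.05 steps of whole multiples of 1 step per library, against at most 9.96% with a step 7% longer. The submitters' processing notes name mm10, Partek and STAR 2.5.3a. What each tool did, the annotation and the strand setting are not stated in the sources used here, so overlapping genes cannot be told apart (besides those named, Tbxas1, Ptgdr2, Abcc4, Crem and Pde4d overlap another listed gene, and no member does). The listed genes held 35.0% to 57.9% of the library total, and 0 pairs of libraries were identical.

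Groups came from the sample labels. A further 3 sample columns of the monocyte and macrophage table match no single label by name and were not used, so the planned tests of dendritic cells against the other populations were not made. Within each table, limma 3.58.1 in R 4.3.3 (lmFit, eBayes with trend) gave two-sided tests of log2(CPM + 1), adjusted by Benjamini-Hochberg over all genes that reached 1 CPM in 4 (dendritic cells) or 3 libraries, at a threshold of 0.05. Single low genes were also tested with exact permutation of libraries. The scripts were tested on simulated data. Alternatives were a pseudocount of 0.1, no filter, 3 rescalings, no trend, a replicate block and each library left out. CPM per kb uses the union of GENCODE M21 exons. The gene bounds of that annotation can differ from the listed ones, as for Ptger4 (start 5206661 against 5233399) and Ptges (end 30929863 against 30903298). The text names all members, the genes of each pathway list that passed (or the 2 with the smallest p), and the 3 genes closest to each member that passed. Closeness is the Pearson correlation over all libraries of a comparison, which includes the difference between its groups. Single marker genes were picked after their values were seen. Members and lists were chosen with earlier results of these data known.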

Additional observations from a re-analysis of the deposited data

Results flagged for a closer look

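Among the members and the pathway genes named in dendritic cells, 42 sets of 4 libraries were examined for 1 library far from the rest, by Dixon's ratio of gap to range on the log2(CPM + 1) scale, which chance exceeds in about 1 in 20 sets. Its 95% critical value was exceeded in 2. Alox5 was at 48.8 CPM in PAM3CSK4 replicate 4 and at 7.23 to 7.79 CPM in the other PAM3CSK4 libraries. Pla2g4a was at 13.2 CPM in vehicle replicate 2 and at 7.06 to 7.21 CPM in the other vehicle libraries.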

How the results depend on the processing

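With PAM3CSK4, 582 genes passed, and 166 did with no filter on low values. Leaving out 1 library gave 184 to 1008: 206, 184, 226 and 261 without vehicle replicates 1 to 4, 258 and 785 without PAM3CSK4 replicates 3 and 4, and 1008 without PAM3CSK4 replicate 1. Members that passed numbered 1, 2 with median centring and 1 to 3 without 1 library (3 without PAM3CSK4 replicate 4). Wider pathway genes numbered 7, 4 with no filter and 3 to 11 without 1 library (3 without any 1 vehicle library or PAM3CSK4 replicate 3, and 11 without PAM3CSK4 replicate 1). Between monocytes and macrophages, members numbered 2 and 1 to 3 without 1 library (1 without macrophage replicate 1 or 2), and wider pathway genes 29 and 19 to 34 (19 without macrophage replicate 1). Without 1 library, the log2 change of Ptgs1 with PAM3CSK4 ran from −0.24 (without PAM3CSK4 replicate 4) to 0.80, and that of Alox5 from −0.79 (without PAM3CSK4 replicate 4) to 0.072, with 0.051, 0.040 and 0.072 without PAM3CSK4 replicates 1, 2 and 3. That of Ptges in macrophages turned to −0.27 with quantile normalization. The causes were not tested. Rescaling moved the median log2 change of all genes from 0.20 to 0.07 (common total), −0.02 (median centring) and 0.02 (quantile) with PAM3CSK4, and from 0.10 to 0.26, −0.02 and −0.03 in macrophages. The numbers of higher and lower genes moved from 321 and 261 to 276 and 390, 208 and 487, and 237 and 438 with PAM3CSK4, and from 1564 and 904 to 2068 and 768, 1370 and 1303, and 1004 and 1238 in macrophages.

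Replicate numbers share only a name. The correlation of deviations between same-numbered libraries was −0.12 to 0.30 in dendritic cells and 0.084 to 0.18 in monocytes and macrophages, where every library correlated best with its own number, a hint from the data only. With the replicate block, 976 genes and 12 wider pathway genes passed with PAM3CSK4, and 2609 and 28 in macrophages, and the members that passed were 1 and 2. In macrophages Rapgef4, Pde7a and Ptgdr2 did not pass with the block (adjusted p = 0.054, 0.068 and 0.059). At about 28 to 75 reads per CPM, the levels of Ltc4s, Ptges and Ptgs2 rest on few reads in most libraries. The alternatives planned for dendritic cells against monocytes or macrophages were not run, since those tests were not made.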
